A study of Mus musculus with 8 samples.

Results

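The comparison described here is that of Dax1KO mouse embryonic stem cells (ESCs) with control ESCs in 2i/LIF, the serum-free medium of the ground state. It sets 2 libraries of control cells against 2 of Dax1KO cells, 4 of the 8 libraries of the series, and the 4 LIF/serum libraries entered the fit through the filter on low counts and the estimate of the spread. Of 52550 genes listed, 20749 passed the filter on low counts and were tested, 19695 of them outside chromosome 6 and 1054 on it. Genes of chromosome 6 are given apart, because the whole chromosome lies higher in the Dax1KO cells.

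The study asked whether the orphan nuclear receptor Dax1 (Nr0b1) is needed for self-renewal in different pluripotent states, and sequenced mRNA of both lines in 2i/LIF and in LIF/serum. For 2i/LIF, both lines grew on gelatin in N2B27 medium with 1 μM of the MEK inhibitor PD0325901, 3 μM of the GSK3 inhibitor CHIR99021 and 10 ng/ml of the cytokine LIF. All libraries are labelled as passage 3. The knockout line was made in 2i/LIF by CRISPR/Cas9 delivered with a lentivirus, and the study names a single colony, Dax1KO-7, as the one used after targeting. It reports that putting Dax1 back rescued the lethality of the knockout cells. No library of that rescue line is in the series. In these libraries, effects of the targeted gene and properties of the knockout clone therefore cannot be told apart. The labels call the other cells control and say nothing more of their genotype. Nothing in the labels says that the 2 libraries of a group came from separate cultures, so the P values measure the spread between libraries of a group, pooled over both media, which may be technical.

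Dax1 is an atypical nuclear receptor that lacks the usual DNA-binding domain and acts mainly as a corepressor of other nuclear receptors. In ESCs it is part of the network around Oct4, Nanog and Esrrb. Inhibition of MEK blocks the differentiation signal of FGF and ERK, and inhibition of GSK3 stabilises beta-catenin, which together hold ESCs close to the naive epiblast of the embryo. A small and changing share of cells in ESC cultures switches on genes of the 2-cell embryo, among them the Zscan4 family.

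Totals per library lay between 35911384 and 37286251 counts over the series, so depth was alike. Counts were scaled to normalised counts, that is counts at the mean library size, and tested by the quasi-likelihood method of edgeR, and P values were adjusted by Benjamini-Hochberg over all 20749 genes. A gene is called up or down where its adjusted P did not exceed 0.05 and it changed by 1.2-fold or more. Where 4 values are given, the first pair is control replicates 1 and 2 and the second pair is Dax1KO replicates 1 and 2, and a value in parentheses before an adjusted P is the log2 fold change. Dax1 itself (ENSMUSG00000025056.4, GRCm38 chromosome X from 86191764 to 86195947) had normalised counts of 457 and 300.1 in control and 0 in each library in Dax1KO cells. Against a floor of 3 counts per library the decrease was at least 129.5-fold (adjusted P = 0.00329), so the libraries match their labels at the targeted gene. The cells also expressed markers of ESCs, among them Nanog, Sox2 and Zfp42, whose counts are given with the naive factors. Of 14 pluripotent identity markers outside chromosome 6, 13 were not called, and Epcam rose. Of 12 fibroblast and feeder markers tested outside chromosome 6, Pdgfrb rose (8.33%) and Thy1 and Col5a1 fell (16.7%). The 1 marker tested on chromosome 6 was not called.

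Outside chromosome 6, 210 genes rose in Dax1KO cells, 1.07% of the genes tested there, and 335 fell, 1.7%. With a fold change of at least 2, 134 genes rose (0.68%) and 232 fell (1.18%). Shares given below for lists of genes are to be set beside the 1.07% and 1.7%. A single call is 2.5% of a list of 40 genes and 5% of a list of 20. Among the 335 lower genes, 93 had a mean below 100 normalised counts, whereas 25 of the 210 higher genes did. The number of calls depends on each of the 4 libraries. Without control replicate 1 there were 134 calls and without control replicate 2 there were 160, while without Dax1KO replicate 1 there were 38 and without Dax1KO replicate 2 there were 36. DESeq2 in place of edgeR called 1181 genes. Fitted on the 4 2i/LIF libraries alone, edgeR called 416, of which 304 were among the 545 called with all 8 libraries in the fit. Of 175 named or list genes called in the fit on 8 libraries and tested in this one, 52 lost their call, and without the filter on low counts 127 of 176 did. All 147 genes that are named below as called had groups that did not overlap, as did 51.8% of all genes tested, and the largest changes were chosen partly for this. Of 176 named or list genes called, 19 kept their call without Dax1KO replicate 1 and 20 without Dax1KO replicate 2, and 0 of the 176 changed sign under the alternatives tried.

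Transcripts of the 2-cell-like state included many that fell. Of 31 such genes tested, 15 fell (48.4%, against 1.7% of all genes outside chromosome 6), 16 were not called and all 31 estimates lay below 0. Their median log2 fold change was -2.73, against -0.01 over all genes tested. The Zscan4 genes, and also Gm4340 and Gm6763, are near copies that may share reads. The list counts each of them separately, so its members are not independent. Putting the 5 genes with no count in Dax1KO cells at their bounds gave a median of -2.51. DESeq2 called 25 of the 31, and with a 2i/LIF library left out edgeR called between 3 and 17. In the fit on the 2i/LIF libraries alone, 8 of 27 fell, and without the filter on low counts 6 of 33. When only genes with at least 10 counts in every 2i/LIF library were kept, 14 of the 31 remained, of which 6 fell, with a median of -1.49, and the other 17 had fewer than 10 counts in at least 1 library. In bulk RNA, fewer cells in this state and less RNA per cell cannot be told apart.

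All 8 tested Zscan4 genes that the annotation lists as protein-coding fell, and so did Zscan4a, which it lists as an unprocessed pseudogene. They encode proteins with a SCAN domain and zinc fingers that mark the 2-cell embryo and act at telomeres. Zscan4c (ENSMUSG00000054272.6, chromosome 7 from 11005745 to 11010547) had 89.2 and 160 in control and 14.6 and 7.82 in Dax1KO cells, a log2 fold change of -3.46 (SE 0.40, adjusted P = 0.0082). Zscan4f fell from 115 and 211 to 17.5 and 16.6, Zscan4d from 114 and 212 to 7.78 and 3.91 and Zscan4e from 56.2 and 90 to 0 and 4.89. In each of these genes both Dax1KO libraries lay far below both control libraries. Zscan4a had 61.2 and 58 counts in control cells and 0 in each Dax1KO library, at least 20.4-fold lower, and Zscan4b had 34.1 and 18 and again 0 in both, at least 8.91-fold lower. Zscan4-ps1, Zscan4-ps2 and Zscan4-ps3, named as pseudogenes, were at 12 and 24, 96.3 and 130 and 54.1 and 74 in control cells, respectively, and each was at 0 in both libraries of Dax1KO cells. These genes are near copies of each other, with at least 95% identity over at least 50% of the transcript, so the share of each copy is uncertain and the family is best read as 1 unit. Of the 8, the number called was 8 without either control library, 4 without Dax1KO replicate 1, 3 without Dax1KO replicate 2 and 5 both in the fit on the 2i/LIF libraries alone and without the filter on low counts.

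The promoters of Zscan4b, Zscan4c, Zscan4d and Zscan4f are shown because this family fell as a whole and because they share short letter strings near their start sites. Sequences are from RefSeq on GRCm38.p6, from 250 bases before to 50 bases after the start of the gene. Capitals mark 2 strings in Zscan4c, TGACCTT, which is AAGGTCA on the other strand and resembles a site of nuclear receptors, and TGATAGAATCA, which resembles the motif of the 2-cell factor Dux. Zscan4c lies at chr7:11005495-11005794 on the plus strand.
Zscan4c: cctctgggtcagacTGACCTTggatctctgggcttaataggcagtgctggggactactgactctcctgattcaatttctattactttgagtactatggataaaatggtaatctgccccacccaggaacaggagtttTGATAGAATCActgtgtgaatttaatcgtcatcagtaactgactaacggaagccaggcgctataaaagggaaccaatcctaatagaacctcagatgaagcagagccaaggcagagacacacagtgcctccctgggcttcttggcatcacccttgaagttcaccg
For comparison, the stretches around the same string are given from the promoters of Zscan4f (chr7:11397665-11397964, plus strand), Zscan4d (chr7:11166099-11166398, minus strand) and Zscan4b (chr7:10905001-10905300, minus strand).
Zscan4f: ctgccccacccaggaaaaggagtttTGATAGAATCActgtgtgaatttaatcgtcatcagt
Zscan4d: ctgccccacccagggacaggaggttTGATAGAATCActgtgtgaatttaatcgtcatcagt
Zscan4b: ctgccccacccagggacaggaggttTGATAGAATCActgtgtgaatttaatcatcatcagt

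The Dux-like string was searched as TGATT and ATCA placed 2 bases apart, on both strands, and TGATAGAATCA matches it when read from the other strand. It stood at bases -114 to -104 from the start in Zscan4c, -91 to -81 in Zscan4f and Zscan4b and -125 to -115 in Zscan4d. It occurred in 0.233% of all 27025 promoters of the table and in 0.0749% of the 12014 promoters of genes outside chromosome 6 that were not called. Of 218 promoters of genes that fell, 4 held it, and these are the 4 Zscan4 promoters. Of 158 promoters of genes that rose, 1 held it, that of Cryzl2. AAGGTCA was present in all 4 Zscan4 promoters, at -236 to -230 in Zscan4c, and in 4.66% of all promoters. It stood in 5.70% of the promoters of genes that rose and 4.59% of those of genes that fell, against 3.35% of those not called. Other strings held by all 4 Zscan4 promoters were CTTTGA (in 16.2% of all promoters), TATAAA (14.2%) and CCAAT (37.9%). Of the 218 promoters of genes that fell, 15.1% held TATAAA and 49.5% held GGGCGG, against 7.49% and 60.2% of those not called. The longer string TCAAGGTCA, the form associated with Esrrb and Nr5a2, was in 0 of the promoters of either called group and in 0.407% of all promoters. The 16 strings searched, of which these are 7, were chosen after the values were seen, the promoters of near copies are not independent (Zscan4b and Zscan4f are 95.7% identical without gaps), and a match describes letters and not binding.

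Other 2-cell-like genes fell as well. Gm4340 fell from 158 and 413 to 18.5 and 18.6 and its near copy Gm6763 from 45.1 and 106 to 4.86 and 4.89. Usp17lb, a deubiquitinase gene of the Dub family, fell from 276 and 594 to 62.2 and 91.9 (log2 fold change -2.50, adjusted P = 0.0187), and Trim43a, a tripartite motif gene of early embryos, from 266 and 503 to 73.9 and 62.6 (-2.49, adjusted P = 0.0136). Tdpoz4, an early embryonic gene with a POZ domain, had 20.1 and 38 counts in control cells and 0 in each Dax1KO library, at least 9.93-fold lower. Sp110, a nuclear body protein, fell from 38.1 and 154 to 4.86 and 11.7, with a wide spread between the control libraries. The members that did not pass include Zfp809, a repressor of retroviral elements, at 2142 and 1686 and 1186 and 939 (adjusted P = 0.0932), and Eif1a at 10439 and 9686 and 9724 and 9408. Trim43a, Tdpoz4, Sp110 and the Gm genes have near copies elsewhere in the genome, and their counts are uncertain to that extent.

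**Figure D1:**
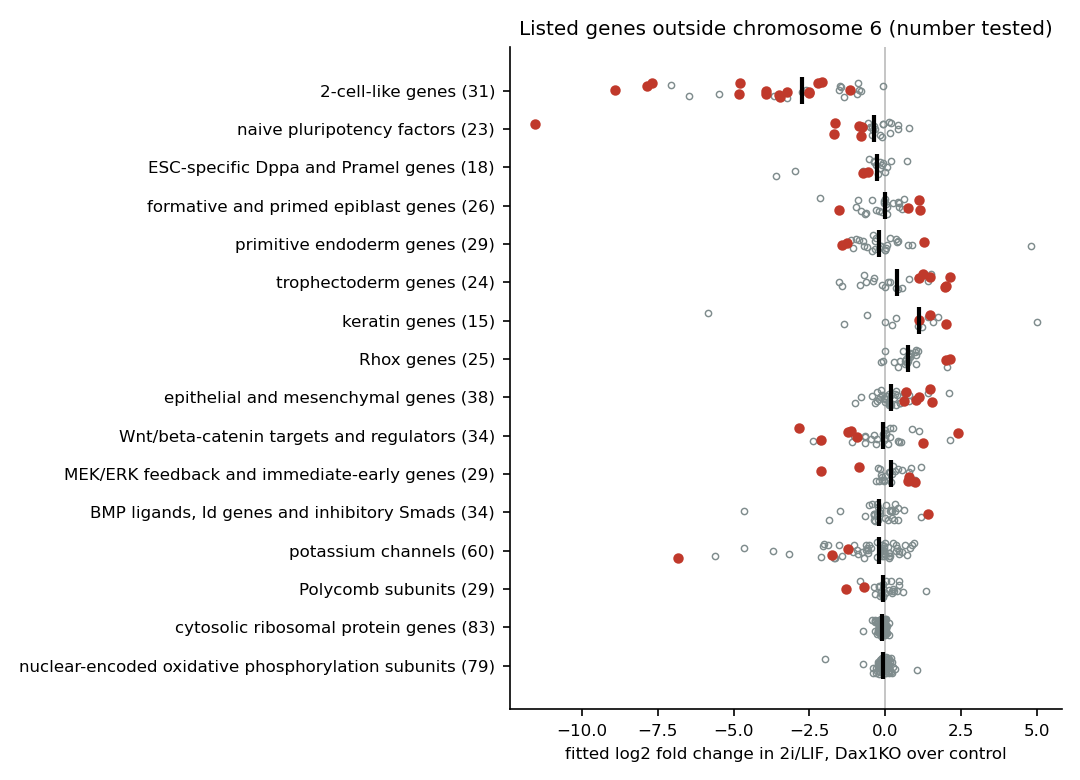
Fitted log2 fold change of Dax1KO over control in 2i/LIF (horizontal axis) for the tested genes of 16 lists outside chromosome 6, with the number tested in parentheses. Filled red points are called genes, open grey points are not called, and black bars are medians. The 2-cell-like list lies to the left of 0 throughout, with a median of -2.73, while ribosomal protein and oxidative phosphorylation genes sit near 0. The values of genes with no count in Dax1KO cells depend on the prior count.

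Among naive pluripotency factors the change was partial. Of 23 tested outside chromosome 6, 6 fell (26.1%, against 1.7% of all genes there), Dax1 among them, and 0 rose, with a median of -0.36. DESeq2 called 8 down and 2 up, and with a library left out 2 were called in each fit. Mybl2, a Myb family factor of the cell cycle with high levels in ESCs, had 20014 and 19889 in control and 6240.4 and 6244 in Dax1KO cells, a log2 fold change of -1.68 (SE 0.14, adjusted P = 0.00423). Foxd3, a forkhead repressor needed to maintain ESCs, fell from 797 and 559 to 236 and 198 (-1.64, adjusted P = 0.0267). Prdm14, which restrains FGF signalling and DNA methylation, fell from 2713 and 3665 to 1661 and 1847 (-0.86, adjusted P = 0.0412). In all 3 genes the libraries of the groups were clearly apart.

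Klf2, a Krueppel-like factor of the naive state, fell from 14775 and 16748 to 8687 and 9951 (-0.76, adjusted P = 0.0488). The nuclear receptor Nr5a2 fell from 3035 and 3043 to 1778 and 1689 (-0.81, adjusted P = 0.0276), and it lies in a run of lower genes on chromosome 1 that is described further on. Other well-known factors of the naive state were not called. Nanog, on chromosome 6, had 65453 and 73848 in control and 61471 and 63425 in Dax1KO cells (adjusted P = 0.497). Esrrb had 5203 and 5636 in control and 4839 and 5532 in Dax1KO cells (-0.06, adjusted P = 0.92), and Klf4 13029 and 11056 in control and 12804 and 13399 in Dax1KO cells (0.12, adjusted P = 0.736). Tfcp2l1, a target of STAT3 and GSK3 inhibition, had 24169 and 19841 in control and 36672 and 39513 in Dax1KO cells, with no overlap of the groups and an adjusted P of 0.0512. Sox2 had 19973 and 16999 in control and 13443 and 12776 in Dax1KO cells (adjusted P = 0.0649) and Zfp42 25658 and 22363 in control and 16563 and 15967 in Dax1KO cells (adjusted P = 0.113). Tdgf1, a coreceptor of Nodal, had 29532 and 38329 in control and 42780 and 47646 in Dax1KO cells and was not called.

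Of 18 Dppa, Pramel and related genes particular to ESCs, 2 fell (11.1%, against 1.7% of all genes outside chromosome 6) and 0 rose. DESeq2 called 4 of the 18 down and 1 up. L1td1, an RNA-binding protein derived from a LINE element, fell from 8229 and 8735 to 4789 and 5349 (-0.74, adjusted P = 0.0172). Tdh, the threonine dehydrogenase on which mouse ESCs depend for one-carbon units, fell from 15440 and 14908 to 9682 and 10981 (-0.55, adjusted P = 0.0417), and a near copy, Gm13929, may share its reads. Dppa5a, which has near copies that may share its reads, had 37471 and 40155 in control and 41825 and 47067 in Dax1KO cells. Trap1a had 6078 and 6089.5 in control and 5857 and 5576 in Dax1KO cells. Neither Dppa5a nor Trap1a was called. Of 26 formative and primed epiblast genes, 3 rose (11.5%) and 1 fell (3.85%), with a median of -0.01. The membrane protein Marcks rose from 1883 and 2128 to 3697 and 5196 (1.15, adjusted P = 0.0173), and the ETS factor Etv4 and the keratin Krt18, described below, were the others. Sall2, a spalt-like zinc finger factor, fell from 356 and 275 to 121 and 101 (-1.51, adjusted P = 0.0256). The de novo methyltransferase Dnmt3b had 3022 and 3077 in control and 4657 and 3777 in Dax1KO cells (adjusted P = 0.206).

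**Figure D2:**
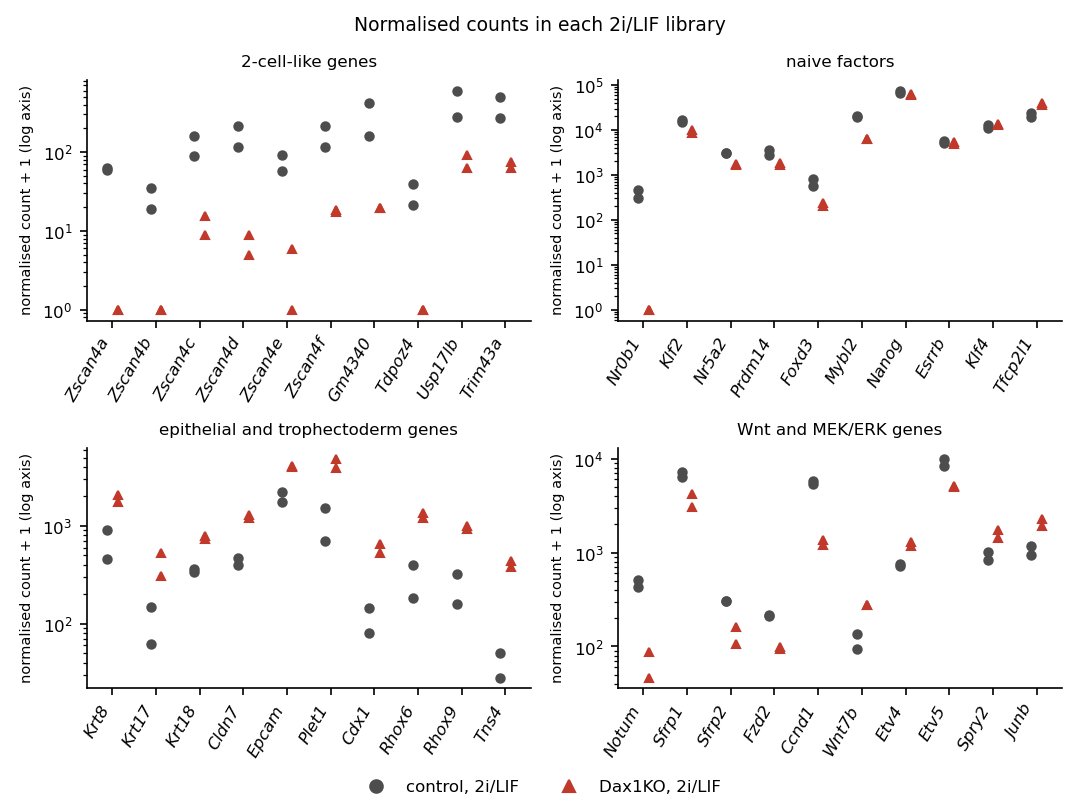
Normalised count plus 1 (log axis) in each 2i/LIF library for 10 genes in each of 4 groups, with grey circles for the 2 control libraries and red triangles for the 2 Dax1KO libraries. The 2-cell-like genes sit far lower in both Dax1KO libraries and Zscan4a, Zscan4b and Tdpoz4 are at 0 there. Nanog, Esrrb and Klf4 lie close to the control and Krt8, Epcam, Plet1 and Tns4 lie above it. The 10 genes of the epithelial and trophectoderm panel are all called up. In the lists, 32 of 38 epithelial and mesenchymal genes and 18 of 24 trophectoderm genes outside chromosome 6 were not called.

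Genes of epithelia and of the trophectoderm, the outer layer of the blastocyst, included several that rose. Of 38 epithelial and mesenchymal genes, 6 rose (15.8%, against 1.07% of all genes outside chromosome 6) and 0 fell. DESeq2 called 7 of the 38 up and 1 down. With a library left out the count of higher genes was between 0 and 4. Epcam, an adhesion molecule of epithelia and ESCs, had 1768 and 2239.5 in control and 4036 and 4119.7 in Dax1KO cells, a log2 fold change of 1.02 (SE 0.14, adjusted P = 0.0152). Cldn7, a claudin of tight junctions, had 394 and 471 in control and 1300.4 and 1215 in Dax1KO cells (1.54, adjusted P = 0.00809) and lies in a run of higher genes on chromosome 11 described further on. The serine protease St14 (matriptase) rose from 4399 and 5126 to 7761 and 7563 (0.69, adjusted P = 0.0271), and its inhibitor Spint1 from 3254 and 3458 to 4911 and 5398 (0.62, adjusted P = 0.0438). E-cadherin (Cdh1), the main adhesion molecule of ESC colonies, had 28765 and 27113 in control and 26776 and 25131 in Dax1KO cells and was not called, and fibronectin (Fn1) had 36695 and 40210 in control and 34598 and 42978 in Dax1KO cells.

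Keratins form the intermediate filaments of simple epithelia. Of 15 keratin genes tested, 3 rose (20%) and 0 fell, with a median of 1.12 (1.10 with bounds), and DESeq2 called 5 up. Krt8 had 460.2 and 912 in control and 1764 and 2062 in Dax1KO cells (1.48, adjusted P = 0.0438). Its partner Krt18 had 335 and 362 in control and 791 and 727 in Dax1KO cells (1.12, adjusted P = 0.0107). Krt17 had 60.2 and 147 in control and 306 and 527 in Dax1KO cells (2.01, adjusted P = 0.0438). Krt42 and Krt19 also had higher values in both Dax1KO libraries, at 153 and 147 against 320 and 386 and at 40.1 and 137 against 185 and 291, and did not pass (adjusted P = 0.0544 and 0.19). The keratin calls numbered 3 without control replicate 2 and 0 without each of the other 3 libraries.

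Of 24 trophectoderm genes outside chromosome 6, 6 rose (25%, against 1.07% of all genes there) and 0 fell. Their median was 0.40, and 15 estimates lay above 0. The keratins Krt8 and Krt18, already counted above, are 2 of the 6. The lowest estimate was -1.53, and 8 genes were higher and 3 lower at an unadjusted P under 0.05. DESeq2 called 7 up and 1 down, and between 0 and 4 were called up with a library left out. The fit on the 2i/LIF libraries alone called 2 of 22 up, and that without the filter on low counts 1 of 25. Plet1, a surface protein of trophoblast and gut epithelium, rose from 692 and 1539 to 3902 and 4871 (1.98, adjusted P = 0.0241), and it overlaps the antisense gene Plet1os. Wnt7b, a Wnt ligand of placental tissue, rose from 136 and 93 to 274 and 278 (1.27, adjusted P = 0.0463). Rhox6 and Rhox9, homeobox genes of the X chromosome that are expressed in placenta and germ cells, rose from 184 and 398 to 1196 and 1357 (2.13, adjusted P = 0.0354) and from 158 and 319 to 921 and 995 (2.00, adjusted P = 0.0396). In both Rhox genes control replicate 1 was the lowest library. Without control replicate 2, 1 Rhox gene was called, and without each of the other 3 libraries 0 were. Of all 25 Rhox genes tested, these 2 passed (8%), 22 estimates lay above 0 and the median was 0.76. Rhox13 had 859 and 1023 in control and 861 and 869.9 in Dax1KO cells. Rhox5 had 12128 and 13292 in control and 12394 and 12763 in Dax1KO cells. Both tested trophectoderm genes of chromosome 6, Tead4 and Gata2, rose as well. The transcription factors Tfap2c and Elf3 had 2737 and 2685 in control and 2720.5 and 2374 in Dax1KO cells and 2707 and 2646 in control and 2417 and 1643 in Dax1KO cells, respectively, and were not called.

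Other lineage lists held calls in both directions. Of primitive endoderm genes 3.45% rose and 6.9% fell, against 1.07% and 1.7% of all genes outside chromosome 6. For mesoderm and primitive streak genes both shares were 3.45%, and of neural ectoderm genes 4% rose and 8% fell. Each of these shares is 1 or 2 genes. Of 29 primitive endoderm genes, Dab2 rose and Lamc1 and Srgn fell. Dab2, an endocytic adaptor, rose from 214 and 285 to 497 and 715 (1.28, adjusted P = 0.0423), the laminin chain Lamc1 fell from 24329 and 23422 to 9402 and 10618 (-1.25, adjusted P = 0.0312), and the proteoglycan Srgn fell from 108 and 106 to 35 and 45 (-1.42, adjusted P = 0.0155). The lineage factors Gata4 and Gata6 had 364 and 346 in control and 309 and 326 in Dax1KO cells and 241 and 275 in control and 79.8 and 155 in Dax1KO cells, respectively (adjusted P = 0.683 and 0.0951). Of 29 mesoderm and primitive streak genes, the growth factor receptor Pdgfrb rose from 146 and 104 to 417 and 461 (1.81, adjusted P = 0.0167) and the angiopoietin receptor Tek fell from 1537 and 1235 to 608 and 720.3 (-1.06, adjusted P = 0.0234), while Eomes had 623 and 790.2 in control and 1094 and 1049.7 in Dax1KO cells and was not called.

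Of 25 neural ectoderm genes, 1 rose and 2 fell. The neurofilament gene Nefm rose from 1035 and 985 to 1679.7 and 1836 (0.80, adjusted P = 0.0213), and the RNA-binding protein Elavl3 fell from 381 and 348 to 124 and 176 (-1.28, adjusted P = 0.0491). Of the fibroblast and feeder markers, the surface protein Thy1 fell from 1726 and 2188 to 1091 and 1086 and the collagen Col5a1 from 1290.5 and 1163 to 651 and 809. Among 22 genes of the retinoic acid pathway outside chromosome 6, 2 rose (9.09%) and 2 fell (9.09%). Aldh1a3, which makes retinoic acid, rose from 87.2 and 94 to 497 and 513 (2.48, adjusted P = 0.0152), and Cdx1, a caudal homeobox gene that retinoic acid and Wnt signals induce, rose from 79.2 and 144 to 527 and 648 (2.39, adjusted P = 0.0145). Meis2, a homeobox cofactor, fell from 1308 and 1079 to 357 and 446 (-1.57, adjusted P = 0.00962), and the binding protein Crabp1 fell from 2230 and 2269.5 to 1231 and 1195 (-0.89, adjusted P = 0.0221). The receptor Rarg had 1355 and 1428 in control and 1208 and 1133 in Dax1KO cells and was not called.

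Of 37 germline and meiosis genes outside chromosome 6, 1 rose (2.7%) and 2 fell (5.41%). Mael, a protein of the piRNA pathway, fell from 795 and 860.2 to 441 and 275 (-1.21, adjusted P = 0.038), the meiosis gene Tex11 fell from 1378 and 1113 to 672 and 593 (-0.98, adjusted P = 0.0271), and Taf7l, a germ cell form of a basal factor, rose from 499 and 527 to 956 and 831 (0.80, adjusted P = 0.0425). Dazl had 28967 and 25846 in control and 29031 and 30472 in Dax1KO cells and Kit 14772 and 13561 in control and 9701 and 10055 in Dax1KO cells (adjusted P = 0.0532). Of 40 imprinted genes outside chromosome 6, 2 rose (5%) and 1 fell (2.5%). The growth restricting gene Phlda2 rose from 207 and 207 to 618 and 398 (1.30, adjusted P = 0.0363). Its neighbour in the same imprinted domain, the transporter gene Slc22a18, rose from 63.2 and 110 to 455 and 391 (2.29, adjusted P = 0.0149). Ddc, a decarboxylase of neurotransmitter synthesis, fell from 912 and 822 to 589 and 514 (-0.65, adjusted P = 0.05). The imprinted noncoding RNAs Meg3 and Rian had 13520 and 12306 in control and 16081 and 18444 in Dax1KO cells and 16467 and 15314 in control and 18880 and 18348 in Dax1KO cells, respectively, and were not called.

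2i/LIF activates the Wnt pathway below GSK3, and several of its genes fell. Of 34 Wnt targets and regulators outside chromosome 6, 5 fell (14.7%) and 2 rose (5.88%), with a median of -0.06. Of all genes there 1.7% fell and 1.07% rose. DESeq2 called 6 down and 2 up, and with a library left out 2 fell in each fit. Notum, an enzyme that removes the lipid of Wnt proteins and is itself a Wnt target, had 508 and 432 in control and 45.7 and 86 in Dax1KO cells, a log2 fold change of -2.83 (SE 0.29, adjusted P = 0.00669). Ccnd1 (cyclin D1), which drives entry into S phase and answers to both Wnt and ERK signals, had 5792 and 5354 in control and 1373 and 1199 in Dax1KO cells, a log2 fold change of -2.12 (SE 0.18, adjusted P = 0.00436). The groups lay several-fold apart in both genes, which overlap the annotated genes Notumos and LTO1, respectively.

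The secreted inhibitors Sfrp1 and Sfrp2 fell from 7264 and 6444 to 3044 and 4236 (-0.91, adjusted P = 0.0306) and from 307 and 305 to 159.5 and 105 (-1.21, adjusted P = 0.0429), and the receptor Fzd2 from 214 and 208 to 98.2 and 93.8 (-1.13, adjusted P = 0.0438). Cdx1 and Wnt7b were the members that rose. The beta-catenin gene Ctnnb1 had 16368 and 23911 in control and 15835 and 13208 in Dax1KO cells and the receptor Fzd5 4938 and 3651 in control and 4495 and 4348 in Dax1KO cells, and neither was called. Of 12 Wnt ligands outside chromosome 6, Wnt7b was the member called, and Wnt9a had 112 and 87 in control and 97.3 and 126 in Dax1KO cells.

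MEK is blocked in this medium, and genes that answer to ERK changed in both directions. Of 29 feedback and immediate-early genes, 3 rose (10.3%) and 2 fell (6.9%), with a median of 0.18, and DESeq2 called 7 up and 2 down. Junb, an AP-1 subunit, rose from 1167 and 947 to 2249.7 and 1905 (0.97, adjusted P = 0.0229), and it overlaps Prdx2. Spry2, a feedback inhibitor of receptor tyrosine kinases, rose from 1015 and 825 to 1721 and 1435 (0.78, adjusted P = 0.0486), and Etv4 from 718 and 751 to 1301 and 1177 (0.75, adjusted P = 0.0266). Etv5, the related ETS factor, fell from 8253 and 9999 to 5168 and 4961 (-0.85, adjusted P = 0.037). Ier2 and Jund had 3159.5 and 2762 in control and 2843 and 2381 in Dax1KO cells and 4342 and 4427 in control and 5501 and 6336 in Dax1KO cells, respectively, and were not called. With a library left out, 0 of the list rose and 1 fell in each fit.

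Of 24 FGF ligands and receptors the binding protein Fgfbp3 fell from 95.3 and 103 to 16.5 and 29.3 (-2.11, adjusted P = 0.0303), and it lies in a run of lower genes on chromosome 19. Fgf4, the main FGF of ESCs, had 10295 and 8980.1 in control and 8733 and 8482 in Dax1KO cells, and its receptor Fgfr1 8917 and 8836 in control and 9013 and 9292 in Dax1KO cells. Of 34 BMP ligands, Id genes and inhibitory Smads, Id1, an inhibitor of helix-loop-helix factors and a BMP target, rose from 126 and 176 to 418 and 386 (1.41, adjusted P = 0.0133), and 0 fell, while DESeq2 called 2 up and 1 down. The receptor Bmpr1a had 3979.8 and 4108 in control and 3382 and 3320.2 in Dax1KO cells. Of 27 genes of the LIF receptor and STAT3, Junb rose and 0 fell, and DESeq2 called 5 up and 0 down. Of 21 Notch pathway genes the ligand Jag1 fell from 747 and 626 to 264 and 286 (-1.32, adjusted P = 0.0155), while Rbpj had 9566 and 9332 in control and 8730.4 and 10823 in Dax1KO cells. Of 29 Nodal and Activin genes edgeR called 0, with 1 up and 6 down at an unadjusted P under 0.05, and DESeq2 called 1 up and 3 down. Of 26 Hippo and Hedgehog genes outside chromosome 6 edgeR called 0, with 2 up and 3 down at an unadjusted P under 0.05, and DESeq2 called 2 up. Yap1 had 4442 and 4839 in control and 3400.3 and 3756 in Dax1KO cells (adjusted P = 0.135).

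Genes of the cell cycle, of cell death and of chromatin gave isolated calls. Of 27 G1 cyclins, CDKs and inhibitors outside chromosome 6, Ccnd1 was the member called, and Cdk4 and E2f4 had 9355 and 10120 in control and 9828 and 9968 in Dax1KO cells and 8369 and 8027 in control and 8070 and 7382 in Dax1KO cells, respectively. Of 32 genes of the BCL2 family and apoptosis outside chromosome 6, Ntn1 fell from 602 and 518 to 151 and 176 (-1.78, adjusted P = 0.0132). It encodes netrin, an axon guidance cue that is also a survival ligand. The antiapoptotic gene Mcl1 had 11304 and 13657 in control and 9429 and 10156 in Dax1KO cells and was not called. Of 34 p53 targets outside chromosome 6 edgeR called 0, with 1 up and 5 down at an unadjusted P under 0.05, and DESeq2 called 2 down. Trp53 had 9388 and 10970 in control and 8793 and 8702 in Dax1KO cells. In the Myc, Max and Mxd list, with 20 genes outside chromosome 6, Mycl fell from 1349 and 1154 to 746 and 776 (-0.72, adjusted P = 0.045) and the telomerase subunit Tert rose from 633 and 752 to 1212 and 1155 (0.77, adjusted P = 0.0419).

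Of 29 Polycomb subunits outside chromosome 6, 2 fell (6.9%) and 0 rose. Rnf2, the ubiquitin ligase of PRC1, fell from 5955 and 4826 to 2212 and 2165 (-1.30, adjusted P = 0.0172), lies in the run on chromosome 1 and overlaps Trmt1l. Bcor, a subunit of a variant PRC1, fell from 3124 and 3733 to 1917 and 2289 (-0.70, adjusted P = 0.0463). The PRC2 subunit Suz12 had 17132 and 14116 in control and 15864 and 15462 in Dax1KO cells and Rbbp4 17674 and 19338 in control and 15693 and 16895 in Dax1KO cells. Of 20 DNA methylation and demethylation enzymes outside chromosome 6, Apobec2 rose from 523 and 565 to 871 and 885 (0.69, adjusted P = 0.0438), and Uhrf1, which brings maintenance methylation to replicating DNA, had 21432 and 22478 in control and 22037 and 23872 in Dax1KO cells. Of 360 zinc finger Zfp genes outside chromosome 6, 2 rose (0.556%) and 4 fell (1.11%), shares below the 1.07% and 1.7% of all genes there. Zfp36, which promotes decay of mRNA with AU-rich elements, rose from 222 and 297 to 599 and 802 (1.43, adjusted P = 0.0273), and Zfp263 rose from 524 and 642 to 1081 and 1173 (0.95, adjusted P = 0.0267). Zfp607b, Zfp30, Zfp553 and Zfp296 fell, with log2 fold changes of -1.52, -0.96, -0.91 and -0.78.

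Of the metabolic and stress genes, Ddit3 (CHOP), a factor of the stress response below ATF4, rose from 384 and 402 to 1097 and 1024 (1.43, adjusted P = 0.00962), and it overlaps Mars. The amino acid transporter Slc7a3 of the same list fell from 1734 and 1725 to 1082 and 963 (-0.76, adjusted P = 0.0207), and the remaining 34 of its 36 members outside chromosome 6 were not called. Slc7a5 had 22088 and 23417 in control and 28267 and 27690 in Dax1KO cells. The small heat shock protein gene Hspb1, which has a near copy, fell from 16519 and 18770 to 11535 and 11775 (-0.60, adjusted P = 0.0438). Hsp90aa1, which has near copies too, had 137820 and 110360 in control and 197040 and 177540 in Dax1KO cells (adjusted P = 0.0815). Of 28 genes of cholesterol synthesis, Pmvk rose from 1628 and 1881 to 3205 and 3559.7 (0.95, adjusted P = 0.038). Of 36 NRF2 and glutathione genes outside chromosome 6, 1 rose (2.78%) and 2 fell (5.56%). The gamma-glutamyl transferase Ggt1 rose from 346 and 343 to 1296 and 1102 (1.80, adjusted P = 0.00669). The glutathione transferase Gsta4 fell from 10768 and 8429 to 5112 and 4274 (-1.03, adjusted P = 0.018). Gsto1, of the same family, fell from 4998 and 4906 to 2814 and 3519 (-0.65, adjusted P = 0.0417). The metallothionein Mt2 had 16072 and 11434 in control and 35460 and 22229 in Dax1KO cells (adjusted P = 0.088).

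Of 282 solute carriers outside chromosome 6, 9 rose (3.19%, against 1.07% of all genes there) and 4 fell (1.42%, against 1.7%), and DESeq2 called 18 up and 10 down. With a library left out, between 1 and 4 were called up and at most 1 down. Slc28a3, a nucleoside transporter, had 204 and 236 in control and 1199 and 1113 in Dax1KO cells (2.39, adjusted P = 0.0044). Slc11a1, a metal ion transporter of lysosomes, rose from 329 and 261 to 1015 and 1003 (1.77, adjusted P = 0.00809), and Slc1a4, a carrier of serine and alanine, from 1083 and 1428 to 2431 and 2686 (1.03, adjusted P = 0.0226). Slc27a2, a fatty acid transporter, fell from 335 and 313 to 89.5 and 109 (-1.70, adjusted P = 0.00809), Slc22a17 from 505 and 359 to 155 and 179.8 and Slc12a8 from 177 and 211 to 71 and 98.7. Of 18 aldehyde dehydrogenases outside chromosome 6, Aldh1a3 was the member called.

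Lists of channels, guidance cues, integrins and matrix genes held 1 to 3 lower genes each, and with so few a single gene moves the share. Of 60 potassium channels, 3 fell (5%, against 1.7% of all genes outside chromosome 6) and 0 rose, with a median of -0.19 (-0.11 with bounds), and DESeq2 called 7 down and 1 up. Among them Kcnk1 fell from 1382 and 1982 to 605 and 826 (-1.23, adjusted P = 0.0267), while Kcnk12 had 16 and 12 counts in control cells and 0 in each Dax1KO library, at least 4.79-fold lower. Of 50 axon guidance genes outside chromosome 6, 3 fell (6%) and 1 rose (2%). The secreted guidance cue Slit3 fell from 304 and 312 to 152 and 115 (-1.20, adjusted P = 0.0485) beside Ntn1, and the netrin receptor Dcc went from 9.02 and 8 to 0 in both Dax1KO libraries, at least 2.91-fold lower. Sema3b, a semaphorin, rose from 302 and 343 to 776 and 934 (1.41, adjusted P = 0.0147). Of 22 integrins 2 fell (9.09%) and 0 rose. The leukocyte subunits Itgal and Itgb7 fell from 255 and 276 to 122 and 113 (-1.17, adjusted P = 0.0302) and from 349.9 and 379 to 187 and 169 (-1.03, adjusted P = 0.0165), and Itgb1, the common beta subunit, had 11063 and 14879 in control and 11408 and 13032 in Dax1KO cells.

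Of 33 collagen genes outside chromosome 6, 2 fell (6.06%). Col18a1 fell from 3892 and 4098 to 2044 and 2231 (-0.90, adjusted P = 0.0173) beside Col5a1, and Col4a1 and Col4a2 were not called. Of 11 laminin genes Lamc1 fell (1 gene, 9.09%), and Lama1 had 6793 and 5832 in control and 7536 and 8526 in Dax1KO cells. Of 33 genes of the interferon response and MHC class I outside chromosome 6, 2 fell (6.06%) and 0 rose, while DESeq2 called 2 up and 3 down. The class I gene H2-D1 fell from 1194 and 1242 to 665 and 718 (-0.82, adjusted P = 0.0401). H2-M5, also of class I, fell from 1608 and 1499 to 743 and 862 (-0.95, adjusted P = 0.0185). Of 24 clustered protocadherins edgeR called 0, the median was -0.84, 6 had an unadjusted P under 0.05, all of them lower, and DESeq2 called 2 down. Pcdhgb1, of which Pcdhgb2 is a near copy, had 1721 and 801 in control and 1630.1 and 4.89 in Dax1KO cells.

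The largest changes among protein-coding genes with at least 200 normalised counts in the higher group, taken from those with groups that did not overlap, included genes outside these lists. Dcdc2a, a doublecortin domain gene, fell from 613 and 547 to 14.6 and 28.3 (log2 fold change -4.75, SE 0.37, adjusted P = 0.00329), and Dpp4, a surface peptidase, from 788 and 662 to 58.4 and 74.3 (-3.45, SE 0.20, adjusted P = 0.00298). Fbp2, the muscle form of fructose bisphosphatase, fell from 306 and 227 to 14.6 and 37.1 (-3.36, adjusted P = 0.00962). Gtsf1l, a relative of a piRNA pathway factor, fell from 1067 and 766 to 139 and 65.5 (-3.16, adjusted P = 0.00809) and Dusp27, an atypical phosphatase, from 383 and 398 to 66.1 and 60.6 (-2.62, adjusted P = 0.00809).

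Ebf1, a factor of the B cell lineage, fell from 368 and 252 to 43.8 and 73.3 (-2.40, adjusted P = 0.0152), Elmo1, a partner of Dock exchange factors, from 293 and 453 to 79.8 and 67.4 (-2.34, adjusted P = 0.0081), and the surface antigen Ly6a (Sca-1) from 761 and 1389 to 209 and 226 (-2.31, adjusted P = 0.0123). Grid1, a glutamate receptor subunit of the delta type, fell from 401 and 505 to 93.4 and 130 (-2.02, adjusted P = 0.0266). Lrch4 fell from 380 and 415 to 58.4 and 124 (-2.12, adjusted P = 0.0213), and the overlapping gene Gm20605 contains a copy of its sequence, so its count is uncertain.

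In the other direction, Tns4, a tensin of focal adhesions, had 27.1 and 49 in control and 374 and 436 in Dax1KO cells, a log2 fold change of 3.41 (SE 0.33, adjusted P = 0.00573). Fgg, the gamma chain of fibrinogen, had 127 and 154 in control and 996 and 1082 in Dax1KO cells (2.88, SE 0.26, adjusted P = 0.0044). AI661453 rose from 141 and 34 to 607 and 648 (2.84, adjusted P = 0.0358), with unequal control libraries, and Aspg, an asparaginase, from 70.2 and 43 to 315 and 257 (2.34, adjusted P = 0.00962). Cpeb4, a regulator of mRNA polyadenylation, rose from 235 and 243 to 1102 and 1257 (2.30, adjusted P = 0.0226), and Fxyd2, a regulatory subunit of the sodium pump, from 112 and 132 to 543 and 572 (2.19, adjusted P = 0.00956). Coro2a, an actin-binding coronin, rose from 70.2 and 80 to 306 and 329 (2.08, adjusted P = 0.0044) and the kinase gene Lrrk1 from 209.6 and 176 to 594 and 937 (1.99, adjusted P = 0.0147).

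Of 70 lists with tested genes outside chromosome 6, 22 held 0 called genes by edgeR, 685 genes in all, and for 7 of these 22 DESeq2 also called 0. Among these 22, DESeq2 called 7 genes up and 20 down. The 83 cytosolic ribosomal protein genes had a median of -0.10, with 4 lower at an unadjusted P under 0.05 and 0 called by DESeq2. The 79 nuclear-encoded oxidative phosphorylation subunits had a median of -0.07, with 2 lower at an unadjusted P under 0.05 and 1 called down by DESeq2. The 32 glycolysis and hypoxia genes outside chromosome 6, the 56 core histone genes and the 22 Hox genes had medians of 0.04, -0.02 and -0.23, each with 1 or 2 genes at an unadjusted P under 0.05 and 0 called by DESeq2. Rpl4, a protein of the large ribosomal subunit whose gene has a near copy, had 133770 and 131770 in control and 127890 and 129880 in Dax1KO cells. Atp5b, a subunit of ATP synthase, had 63826 and 65229 in control and 57470 and 58091 in Dax1KO cells.

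Chromosome 6 behaved as a unit. In 2i/LIF its 1054 tested genes were centred on a log2 fold change of 0.44 (median), and 79.0% of estimates were above 0. The medians of the other autosomes and of chromosome X lay between -0.06 and 0, and that of the 31 tested genes of chromosome Y was 0.71 here and 0 for LIF/serum. Along chromosome 6, cut into 10 parts of about equal gene number, the median was between 0.30 and 0.50 in each part, so the shift ran over its whole length. It was present at every level of expression, with a median of 0.38 below 100 normalised counts, 0.40 from 100 to 1000 and 0.48 above 1000. In LIF/serum the median of the same chromosome was 0.52.

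**Figure D3:**
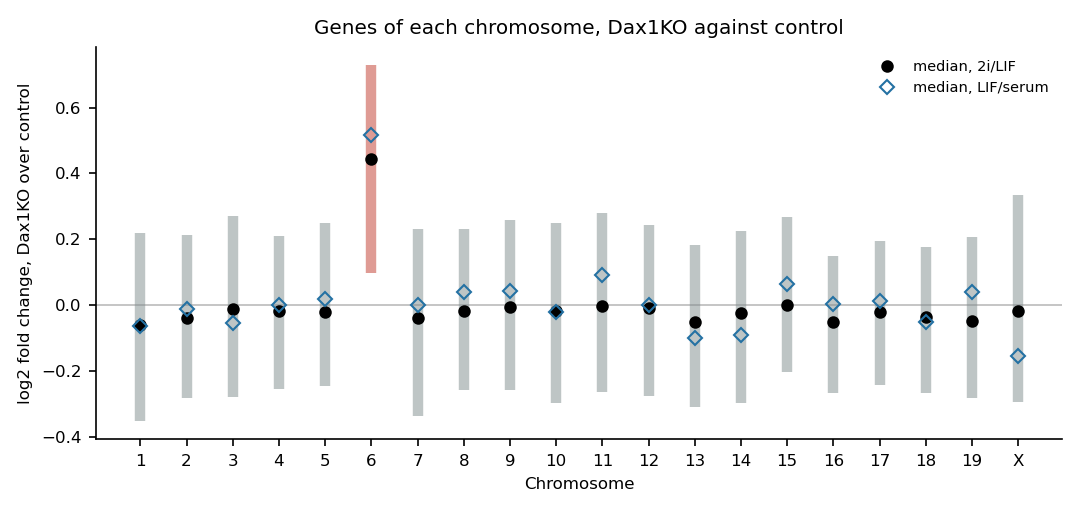
Median log2 fold change of Dax1KO over control (vertical axis) for the tested genes of each chromosome, with black circles for 2i/LIF, open diamonds for LIF/serum and bars for the middle 50% of the genes in 2i/LIF. Chromosome 6 stands apart, at 0.44 for 2i/LIF and 0.52 for LIF/serum, and the medians of the other chromosomes drawn lie between -0.06 and 0 in 2i/LIF.

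Of the chromosome 6 genes, 104 were called up, 9.87%, and 7 down, 0.664%. Many list members of the chromosome passed with moderate log2 fold changes, among them the histone methyltransferase Ezh2 at 0.64, the cell cycle factor Foxm1 at 0.67, the DNA glycosylase Mbd4 at 0.74, the folate enzyme Mthfd2 at 0.61, the mitochondrial ribosomal protein gene Mrpl35 at 0.59 and the RNA polymerase I subunit Polr1a at 0.75. The endoplasmic reticulum genes Pdia4 and Edem1 (0.53 and 0.71), the coatomer gene Copg2 (0.47) and the apoptosis gene Bcl2l13 (0.69) belong with them. Bcl2l14, Hk2, Klf15, Sgce, Slc41a3, Asz1 and Plxnd1 had log2 fold changes of 1.39, 0.98, 0.96, 1.31, 1.37, 1.66 and 0.76. None of these 17 genes differed from the shift of the chromosome at an adjusted P of 0.05. Whether they moved beyond the chromosome is not resolved at this number of libraries, since Asz1, Bcl2l14, Slc41a3 and Sgce lay well above the shift. Without control replicate 1 or 2 there were 12 and 13 calls on the chromosome, and without Dax1KO replicate 1 or 2 there were 2 and 3, while its median stayed between 0.42 and 0.45.

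When each gene was tested against the chromosome's own shift, 36 differed, 3.42% of the 1054, 15 above it and 21 below it. Gata2, a factor of trophoblast and blood, had 425 and 335 in control and 1249 and 1522 in Dax1KO cells, 1.42 above the shift on the log2 scale (adjusted P = 0.0402). Tead4, the factor that specifies trophectoderm, had 1229 and 1453 in control and 3094 and 3273 in Dax1KO cells, 0.80 above it (adjusted P = 0.0232). Epha1, an ephrin receptor, had 163 and 127 in control and 579.7 and 470.1 in Dax1KO cells, 1.41 above it (adjusted P = 0.0155), and Tgfa, a ligand of the EGF receptor, 59.2 and 91 in control and 267 and 260 in Dax1KO cells, 1.37 above it (adjusted P = 0.0344). Each of these genes rose beyond what the chromosome as a whole shows.

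Antxr1, an anthrax toxin receptor, rose from 108 and 119 to 458 and 515, 1.65 above the shift (adjusted P = 0.0391), and Aldh1l1, a folate enzyme, from 1920.2 and 2266 to 4512 and 4425, 0.65 above it (adjusted P = 0.0438). The pseudogene Gm18609 had 103 and 99 in control and 414 and 430.1 in Dax1KO cells. Arhgef5, an exchange factor of small GTPases, rose from 179 and 190.1 to 631 and 772 (1.92, adjusted P = 0.0223) and missed the threshold against the shift (adjusted P = 0.0509). In the other direction Loxl3, a lysyl oxidase of collagen crosslinking, had 309.8 and 303 in control and 38.9 and 18.6 in Dax1KO cells, -3.85 from the shift (adjusted P = 0.005), and overlaps Htra2. Tuba3a, a tubulin of testis with a near copy, had 14145 and 12430 in control and 7110 and 7639 in Dax1KO cells, -1.29 from the shift (adjusted P = 0.0156). Gm4782 and Gm8038, near copies of each other, had 272 and 422 in control and 149.8 and 154 in Dax1KO cells and 304 and 480.1 in control and 179 and 169 in Dax1KO cells, respectively. Nanog, at a log2 fold change of -0.16, differed from the shift as well (-0.60, adjusted P = 0.0295), and the glucose transporter Slc2a3, at 0.02, did not pass (adjusted P = 0.291). With either Dax1KO library left out, 1 gene was called against the shift, and without control replicate 1 or 2 there were 7 and 9.

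Outside chromosome 6, 3 shorter runs of neighbouring genes moved together. They were found after the values were seen, as windows of 15 consecutive protein-coding genes with a mean of at least 100 normalised counts whose median log2 fold change was at least 0.5 in size with the same sign in both media. Over 11043 windows outside chromosome 6 the middle 50% of medians lay between -0.08 and 0.05 in 2i/LIF. No test was made of them, since the runs were chosen by these values.

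On chromosome 1 the run spanned 17.1 Mb, from Nr5a2 to Glul (136842571 to 153909723). Its 32 protein-coding genes with at least 100 counts had a median of -0.99, or 50.5% of the control level, and 31 estimates lay below 0. Of them 19 were called down and 0 up, and in LIF/serum the median was -1.09. Members included Cdc73, a subunit of the Paf1 complex, with 3437 and 3235 in control and 1715 and 1673 in Dax1KO cells, the spindle protein Aspm with 3378 and 2719 in control and 1587 and 1481 in Dax1KO cells, the nuclear pore protein Tpr with 12539 and 9040.2 in control and 6672 and 5915 in Dax1KO cells and glutamine synthetase, Glul, with 4573 and 6144 in control and 2406 and 2563 in Dax1KO cells. Nr5a2, Rnf2 and Lamc1, named above as a naive factor, a Polycomb subunit and a laminin, all lie within it, at -0.81, -1.30 and -1.25.

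On chromosome 19 the run spanned 2.9 Mb from Lipa to Kif11 (34492318 to 37421859). Its 13 such genes had a median of -0.89 (53.8% of control), 12 estimates were below 0, 5 were called down, and the LIF/serum median was -1.06. The mitotic kinesin Kif11 had 7954 and 7021 in control and 3402 and 3303 in Dax1KO cells, the insulin degrading enzyme Ide 7925 and 7899 in control and 4287 and 4223 in Dax1KO cells and the tankyrase Tnks2, which acts on Axin in the Wnt pathway, 12428 and 12091 in control and 5735 and 6288 in Dax1KO cells. Fgfbp3 is the list member there that was called.

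On chromosome 11 the run spanned 1.1 Mb from Ybx2 to Derl2 (69935796 to 71019841). Its 36 such genes had a median of 0.58, or 149.5% of control, 34 estimates were above 0, 8 were called up, and the LIF/serum median was 0.55. Pfn1 (profilin) had 12684 and 14192 in control and 20885 and 19910 in Dax1KO cells, Gabarap, of the autophagy machinery, 2602 and 2775 in control and 4128 and 4041 in Dax1KO cells, and Acadvl, of fatty acid oxidation, 911 and 888 in control and 1352 and 1360.5 in Dax1KO cells. Cldn7 and the mitochondrial carrier gene Slc25a11 lie within it. Without the genes of the 3 runs, 511 genes were called outside chromosome 6, 202 up and 309 down, of 19553 tested.

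**Figure D4:**
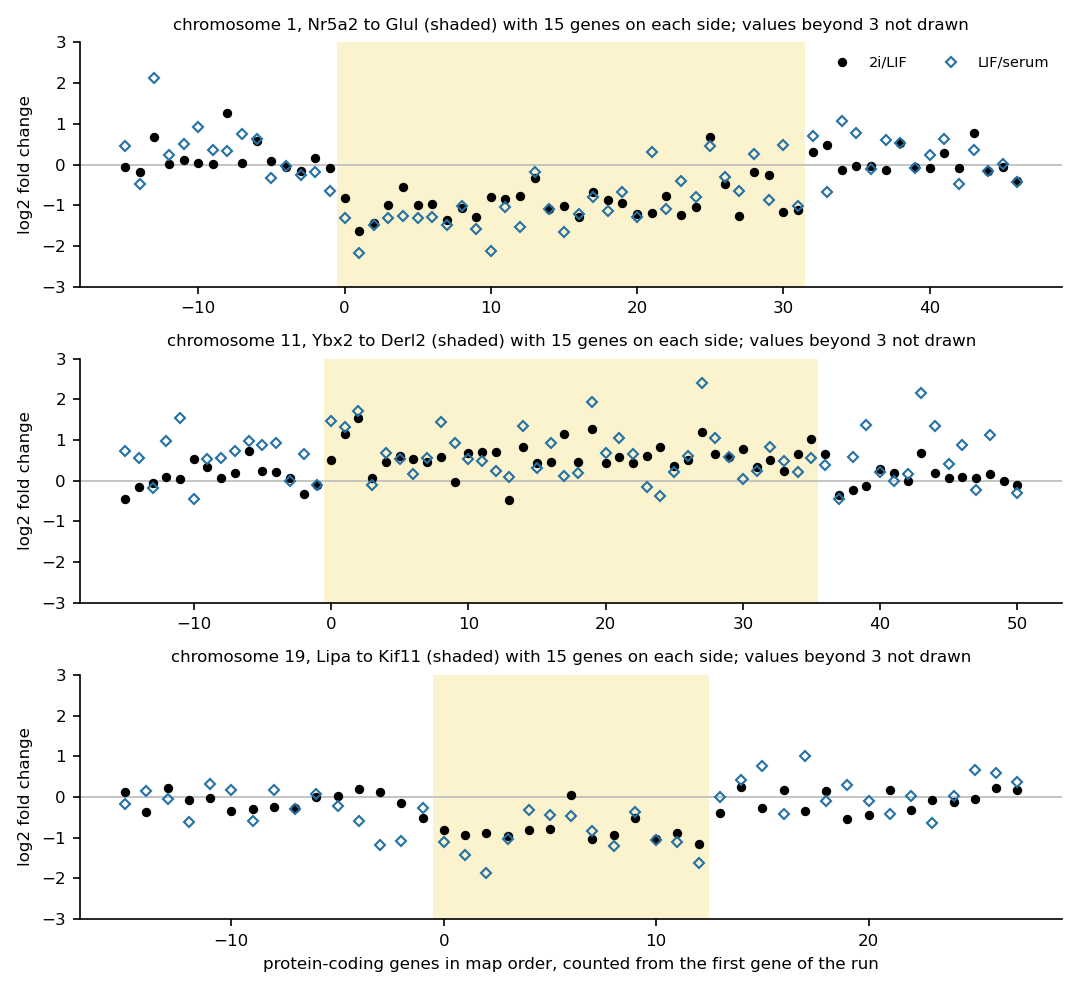
Log2 fold change of Dax1KO over control (vertical axis) for consecutive protein-coding genes in map order (horizontal axis, counted from the first gene of the run), with black points for 2i/LIF and open diamonds for LIF/serum. Shaded parts are the runs on chromosomes 1, 11 and 19, with medians of -0.99, 0.58 and -0.89 for black points, and the 15 genes on each side scatter around 0.

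The change in 2i/LIF was compared with that of the same lines in LIF/serum by the interaction of genotype and medium. Outside chromosome 6, 557 genes differed, 2.83% of those tested, 163 with the larger value in 2i/LIF and 394 with the smaller. With 1 of the 8 libraries left out the number was between 37, without Dax1KO replicate 2 of 2i/LIF, and 323, without control replicate 1 of LIF/serum. All 8 protein-coding Zscan4 genes and Zscan4a were among the 557. In LIF/serum, where Zscan4 transcripts are more abundant, Zscan4c had 3349 and 4523 in control and 3276 and 3049.9 in Dax1KO cells, a log2 fold change of -0.32, against -3.46 in 2i/LIF (adjusted P of the interaction = 0.0229). The median of the 31 2-cell-like genes was -0.31 in LIF/serum, and 12 of them differed between the media.

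Some genes moved in opposite directions. Dpp4 fell in 2i/LIF and rose in LIF/serum, from 997 and 854 to 2145 and 1808 (interaction adjusted P = 0.00152). Dcdc2a did the same, from 4.24 and 8.53 to 36.4 and 44.9 in LIF/serum (adjusted P = 0.00324). Thy1 and Srgn also fell in 2i/LIF and rose in LIF/serum, with log2 fold changes of 1.63 and 1.37 there (adjusted P = 0.00364 and 0.00482). Id1 and Junb showed the reverse order, at 1.41 and 0.97 in 2i/LIF against -0.83 and -0.70 with serum (adjusted P = 0.00942 and 0.0148). Of the 42 named genes that were called in 2i/LIF and differed between media, 22 had opposite signs, and 10 were called in both media with opposite signs.

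Fgg reached 996 and 1082 in Dax1KO cells of 2i/LIF, while in LIF/serum it had 6.36 and 13.9 in control and 14.3 and 10.7 in Dax1KO cells (adjusted P = 0.0379). Epcam, Krt17 and, on chromosome 6, Gata2 had log2 fold changes of -0.22, -1.27 and 0.01 in LIF/serum. Each was lower than in 2i/LIF by the interaction test (adjusted P = 0.0258, 0.0299 and 0.0482). Other genes did not pass the interaction test, which does not show that their changes were equal. Slc28a3 had a log2 fold change of 2.39 in 2i/LIF and of 2.28 with serum, Ggt1 1.80 and 1.80, Coro2a 2.08 and 2.11 and Pdgfrb 1.81 and 1.79, and their interaction adjusted P values were 0.923, 1, 0.983 and 1. Dax1 itself was lost in both media, and in LIF/serum had 5402 and 5001 in control and 13.4 and 5.85 in Dax1KO cells.

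**Figure D5:**
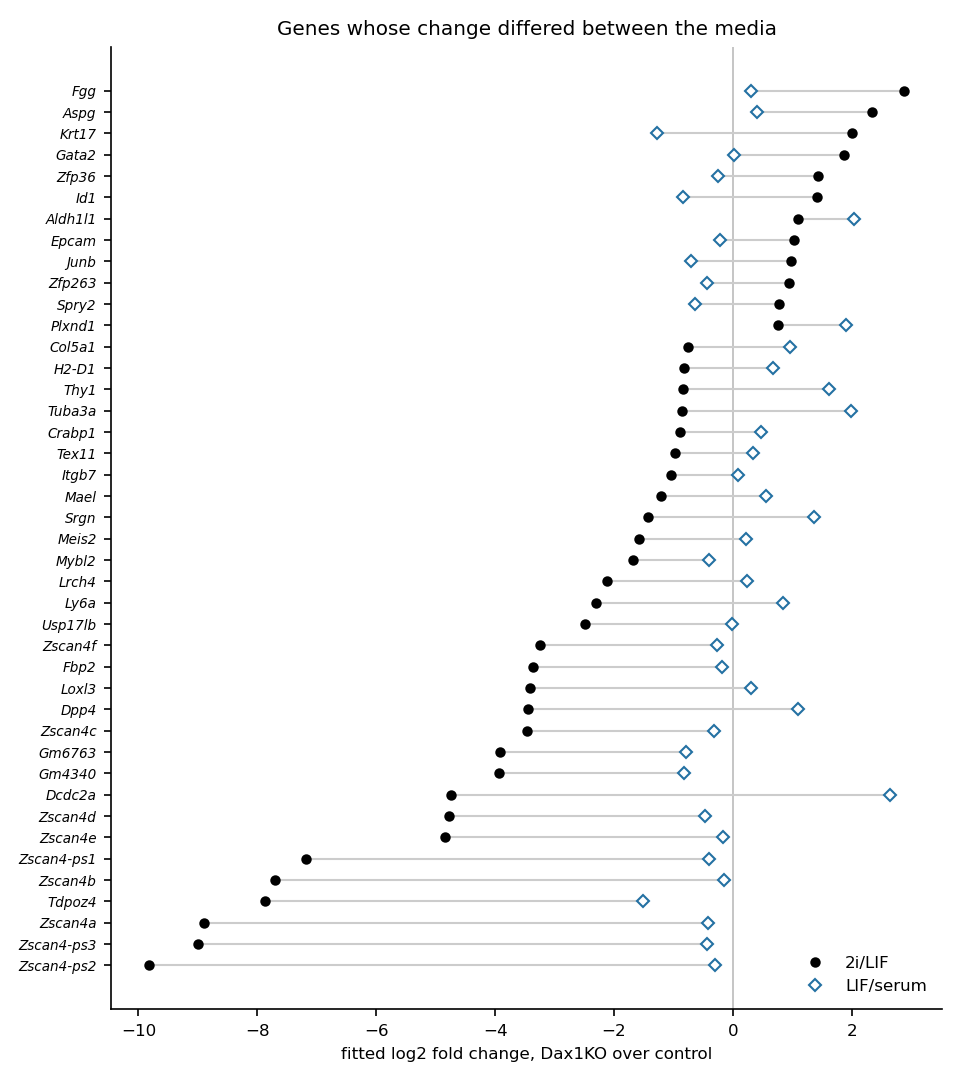
Fitted log2 fold change of Dax1KO over control (horizontal axis) for the 42 named genes called in 2i/LIF whose change differed between the media, with black points for 2i/LIF and open diamonds for LIF/serum, joined by a grey line per gene. The Zscan4 genes lie near 0 in LIF/serum and far below it in 2i/LIF, and Dpp4 and Dcdc2a lie on opposite sides of 0. Loxl3, Tuba3a, Plxnd1, Aldh1l1 and Gata2 are on chromosome 6, and their values include the shift of that chromosome.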

How the data were processed

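mRNA-seq was carried out on 8 libraries, 2 for each combination of line (control, Dax1KO) and medium (2i/LIF, LIF/serum). The deposited files hold raw counts per gene and sample, which the authors made from reads aligned to the mouse genome, and processing tools named per the labels were HISAT2 2.0.4 and DESeq2, with build mm10 (GRCm38). The counting tool and its use of strand are not given in the sources used here. Values of 1 to 6 stood at 3 or 6 in 43.0% to 46.2% of cases, a property of the deposited counts whose origin was not tested. Gene names and positions came from GENCODE M21, which held 52403 of 52550 identifiers, 49035 with the same version.

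Counts were scaled by TMM and tested with edgeR 4.0.16 in R 4.3.3 (quasi-likelihood, 8 libraries, 1 coefficient per group) after filterByExpr, with Benjamini-Hochberg adjustment over 20749 genes. The biological coefficient of variation was 20.9%. Totals of 35911384 to 37286251 counts per library put counting error below this spread for genes above 100 counts. Chromosome 6 genes were also tested after subtraction of that chromosome's median. Adjusted P values in the text come from these edgeR fits. DESeq2 1.42.0, other scalings and filters, the replicate number as a block and leaving out single libraries were alternatives. Transcript copies were found with blastn 2.17.0+. The script was tested on simulated data for this comparison with 20137 genes, where 28.1% of genes changed 2-fold and 58.9% of those changed 4-fold were recovered and 8 of 91 calls outside chromosome 6 were false.

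The genes named were the 15 largest increases and decreases outside chromosome 6 (2-fold or more, 200 normalised counts or more in the higher group, groups not overlapping, no Gm or Rik names), the 6 and 4 largest on chromosome 6, called members of each list (at most 8), up to 2 uncalled members with the largest counts and 5 genes that differ from the chromosome 6 shift. Members of the 3 runs, and Il2, Gad1, H1fx and Kctd12, were chosen after their values were seen. The lists and rules were chosen with earlier results of these data known. A few genes that these rules chose, and a list, are not reported here.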

Additional observations from a re-analysis of the deposited data

Results flagged for a closer look

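For 42 named genes called in 2i/LIF, the change between Dax1KO and control differed between 2i/LIF and LIF/serum by the interaction term of edgeR's quasi-likelihood test at an adjusted P of 0.05. Each value here is the log2 fold change in 2i/LIF minus that in LIF/serum, so that a negative value means a lower Dax1KO level, relative to control, in 2i/LIF. Among 2-cell-like genes the differences were Zscan4e (-4.67), Zscan4d (-4.31), Zscan4c (-3.15), Zscan4f (-2.99), Gm6763 (-3.14), Gm4340 (-3.12) and Usp17lb (-2.48). For Zscan4-ps2 (-9.52), Zscan4-ps3 (-8.58), Zscan4a (-8.48), Zscan4b (-7.56), Zscan4-ps1 (-6.79) and Tdpoz4 (-6.35) both Dax1KO libraries in 2i/LIF were at 0, so these fitted values depend on the prior count and are no bounds.

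Outside that group the genes with the largest negative differences were Dcdc2a (-7.39), Dpp4 (-4.54), Loxl3 (-3.72), Fbp2 (-3.18), Ly6a (-3.15), Tuba3a (-2.84), Srgn (-2.79), Thy1 (-2.47) and Lrch4 (-2.36). Further genes with negative differences were Col5a1 (-1.72), Crabp1 (-1.37), Mybl2 (-1.27), Meis2 (-1.79), H2-D1 (-1.48), Plxnd1 (-1.14), Tex11 (-1.31), Itgb7 (-1.12), Mael (-1.77) and Aldh1l1 (-0.94). Positive differences, with the higher Dax1KO level relative to control in 2i/LIF, were found for Krt17 (3.28), Fgg (2.58), Id1 (2.25) and Aspg (1.92). Smaller ones were those of Zfp36 (1.68), Junb (1.68), Spry2 (1.41), Zfp263 (1.38) and Epcam (1.24). On chromosome 6 the differences were Loxl3 (-3.72), Tuba3a (-2.84), Plxnd1 (-1.14), Aldh1l1 (-0.94) and Gata2 (1.85). For these chromosome 6 genes the shift of the chromosome was not subtracted in either medium. The cause of the differences between the media was not tested.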

How the results depend on the processing

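The main counts were 545 genes called outside chromosome 6 (366 with a fold change of at least 2), 111 on it, 36 against its shift and 557 for the interaction, with a chromosome 6 median of 0.44. Without the filter on low counts these were 105, 95, 16, 3 and 108, and the median was 0.363. Of the 176 called genes that are named or listed, 127 then lost their call. At an unadjusted P under 0.05 they were 3242, 1225, 440, 203 and 3751, and by DESeq2 1181, 591, 260, 81 and 1420. Fitted on the 2i/LIF libraries alone, with 19282 genes tested, 416 genes were called outside chromosome 6 (304 shared with the 545), 20 against the shift, and the median was 0.458. That fit called 3 Wnt genes down and 1 up (5 and 2 in the fit on 8 libraries), 1 primitive endoderm gene down and 0 up (2 and 1), 1 Polycomb subunit down (2), 1 Rhox gene up (2) and 2 solute carriers down (4). The median was 0.463 with scaling from genes outside chromosome 6 and 0.462 with protein-coding genes only. Leaving out 1 library gave 36 to 160, 36 to 154, 2 to 13, 1 to 9 and 37 to 323 genes and medians of 0.422 to 0.451. A left-out library leaves 1 in its group, which is then assumed to vary like the others. Without the genes of the 3 runs, an alternative chosen after the data were seen, the counts were 511, 345 and 553 (interaction). Of 176 called genes that are named or listed, 0 changed sign under these alternatives. Of 129 genes that the naming rules chose and that were not called, 36 changed sign when 1 library was left out. The lowest and highest log2 fold changes over these 4 fits are given for Tfap2c (-0.19 to 0.0050), Sox13 (-0.35 to 0.014), Igf2bp1 (-0.078 to 0.018), Pkm (-0.32 to 0.019), Rhox13 (-0.24 to 0.026), Esrrb (-0.16 to 0.030), Hoxc13 (-0.28 to 0.040), Rhox5 (-0.080 to 0.068), Ncl (-0.083 to 0.070), Pde8a (-0.34 to 0.072), Gsc (-0.14 to 0.092), Kcnk5 (-0.14 to 0.095), Cdk4 (-0.032 to 0.097), Ctsb (-0.0042 to 0.10), Kcns3 (-0.31 to 0.13), Srebf2 (-0.11 to 0.14), Suz12 (-0.11 to 0.15), Itgb1 (-0.28 to 0.16), Fn1 (-0.15 to 0.16), Stmn2 (-0.48 to 0.16), Mrpl42 (-0.059 to 0.18), Rbpj (-0.11 to 0.20), Serpinb6a (-0.16 to 0.21), Hist1h2ap (-0.12 to 0.21), Hist1h2ao (-0.15 to 0.21), Pde7a (-0.13 to 0.21), Piwil2 (-0.044 to 0.22), Insig1 (-0.018 to 0.23), Scd1 (-0.23 to 0.24), Fzd5 (-0.14 to 0.28), Aldoa (-0.28 to 0.30), Wnt9a (-0.035 to 0.36), Pcdhgb1 (-7.97 to 0.37), Klf10 (-0.052 to 0.40), Ago2 (-0.036 to 0.41) and Nr6a1 (-0.12 to 0.56). Scaling from genes outside chromosome 6 put Rhox5 at 0.0019 and Ncl at 0.0019, past 0, and Srebf2 passed 0 without the filter (-0.0012), with at least 10 counts in every library (-0.0014), with counts divided by 3 (-0.0014) and with protein-coding genes only (-0.0031). The replicate numbers were not shown to pair libraries, as same-numbered libraries correlated at 0.0796 in 2i/LIF and 0.108 in LIF/serum over 2 pairs each. Adding the replicate block gave counts of 469, 315, 104, 33 and 513 and a median of 0.447. With the block 29 of the 176 called genes lost their call, 2 trophectoderm genes (6 without it) and 0 Rhox genes (2) rose, 4 epithelial genes (6) and 6 solute carriers (9) rose, and 3 Wnt genes fell (5) and 1 rose (2). Depth limits the precision of low counts, recovery by level of expression was not tested, and genes that were not called are not shown to be unchanged.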

Other observations

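Several genes outside the lists had no count in one group. Il2, an immune cytokine, had 55.1 and 40 normalised counts in control cells and 0 in each Dax1KO library, at least 16.3-fold lower against 3 counts per library (edgeR adjusted P = 0.0417). Gad1, which makes the transmitter GABA, had 24.1 and 38 against 0 and 0, at least 10.6-fold lower (adjusted P = 0.0166). The linker histone gene H1fx on chromosome 6 had 927 and 867 in control cells and 0 in each Dax1KO library without passing the test (adjusted P = 0.245). Kctd12 had 0 in each control library and 646 and 557 in Dax1KO cells, and did not pass either (adjusted P = 0.17). These 4 genes were chosen after their values were seen.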
